A study of Mus musculus with 2 samples.

Results

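Cytosolic ribosomal protein genes were examined in the inguinal fat pad, a subcutaneous white adipose tissue of the mouse. They were taken by gene symbol (Rpl, Rplp, Rps and Rpsa names, without symbols marked as pseudogenes), a rule that uses no measured difference, although this family was picked for study with earlier results of these data known. The rule gave 60 genes of the 19938 that could be named. Of these, 53 encode standard proteins of the ribosome (20 of the small and 33 of the large subunit), here called core genes, and 7 are paralogs, copies with a related sequence. A full set of 79 standard genes was listed for comparison. Of the 26 that the rule left out, 16 were read only by probe sets carrying several gene symbols. The other 10 include Fau, whose symbol does not follow the pattern, and the rest were not analysed here.

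All mice were male C57BL/6J littermates without apolipoprotein E, a ligand for the uptake of lipoproteins. The ApoE-KO mice carried that deletion (ApoE-/-), and the DKO mice (Ucp1-/-;ApoE-/-) also lacked uncoupling protein 1, the mitochondrial carrier by which brown and beige fat cells make heat. Both groups had been kept on chow at 23 °C and then ate a high-fat diet for 9 weeks from an age of 9 weeks. RNA of 3 mice per genotype was mixed and read on 1 Affymetrix array each. There are thus 2 arrays, no measure of the spread between mice or arrays, no test and no p-value. Differences are log2 intensities, DKO-labelled array minus ApoE-KO-labelled array, and pairs of intensities are given in the same order.

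Median intensities over 35557 probe sets were 152.1 and 157.65. An expression floor was set at 196.9, the middle of the mean intensities of probe sets with 1 symbol, which 9891 genes reached. It serves here to set dim genes aside and is no limit of detection. Ucp1 read 2229.9 in the DKO-labelled array against 219 in the other, which goes against the labels if its probes lie in the deleted part. The sources used here do not say where they lie, so every direction rests on the labels. Apoe, deleted in both groups, read 502 and 589.3. The 15 adipocyte markers all lay above the floor in both arrays, the lowest at 1338.

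Ribosomal proteins and ribosomal RNA together form the ribosome, whose small subunit reads the messenger RNA and whose large subunit joins amino acids. Cells make these proteins in matched amounts. Their mRNAs begin with a short stretch of C and T bases, the 5′ terminal oligopyrimidine (TOP) tract, through which the growth kinase mTORC1 and the RNA-binding protein LARP1 control them. That control acts mainly on translation, which an array of RNA levels does not read.

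The start of the gene is shown first because the TOP tract is the sequence feature these mRNAs are known to share. RefSeq windows of 30 bases (15 before and 15 after the annotated start, GRCm38.p6) were held for 48 of the 60 genes, 57 windows in all. Capitals mark the longest unbroken run of C or T on the gene's own strand. The first 3 genes had the lowest and the next 3 the highest differences among genes with a window. The last 3 had the longest runs within the window.
Rpl3l, upstream start, chr17:24727811-24727840, plus strand: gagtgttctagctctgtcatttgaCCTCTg
Rpl3l, downstream start, chr17:24732670-24732699, plus strand: gtcatcaacagctacagtgCCCCaaatgtc
Rpl14, chr9:120571502-120571531, plus strand: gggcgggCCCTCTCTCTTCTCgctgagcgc
Rpl13, chr8:123102335-123102364, plus strand: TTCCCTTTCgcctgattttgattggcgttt
Rps27l, upstream start, chr9:66946071-66946100, plus strand: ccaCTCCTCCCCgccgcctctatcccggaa
Rps27l, downstream start, chr9:66946398-66946427, plus strand: accatgggCTTCagggtcactaacgggcct
Rpl7l1, chr17:46782642-46782671, minus strand: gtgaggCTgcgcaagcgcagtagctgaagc
Rpl24, chr16:55966260-55966289, plus strand: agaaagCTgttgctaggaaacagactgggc
Rpl7a, chr2:26910792-26910821, plus strand: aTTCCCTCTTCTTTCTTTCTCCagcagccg
Rpl27a, chr7:109519180-109519209, plus strand: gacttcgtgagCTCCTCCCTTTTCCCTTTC
Rpl34, one of its starts, chr3:130730323-130730352, minus strand: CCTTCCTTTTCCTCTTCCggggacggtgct

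Within its window, the run was 21 bases long in Rpl7a, 19 in Rpl27a, 18 in Rpl34 and 14 in Rpl14. The runs of Rpl27a and Rpl34 reach the edge of the window, so they may be longer. The run was 2 bases long in Rpl24 and Rpl7l1, both of which read higher in the DKO-labelled array. Other genes paired the other way: Rps4x, with a run of 4 bases, read lower (-0.33), and Rplp2, with 10, read higher (0.07). A run of at least 8 bases of C or T stood in 16 of the 49 windows of core genes (32.7%), in 2 of the 8 windows of paralogs (25%) and in 12% of the 32851 windows of all genes. The 15 core genes with such a run had a median difference of -0.21, and 14 of them were lower in the DKO-labelled array. The 27 core genes without one had a median of -0.16, and 25 were lower. Both sets thus lay mostly on the same side of 0. Runs were counted anywhere in the window, also where they end before the annotated start, as in Rpl13 and Rpl4. Such a run describes letters only, and an annotated start can lie some bases away from the true one.

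Core ribosomal protein genes read lower in the DKO-labelled array, each by a small amount. Of the 53, 50 were lower and 3 higher, whereas 52.1% of all named genes, and 51.4% of those above the floor, were lower. The median difference of the core genes was -0.19, with the middle 50% between -0.29 and -0.12. The 9891 genes above the floor had a median of -0.01 and a middle 50% between -0.19 and 0.20. In mixed tissue, fewer cells of a type and less RNA per cell cannot be told apart. The ribosomal genes are bright on this array, and 30 core genes fell among the 5% of named genes with the highest mean intensity. Those 30 had a median of -0.18 and 29 of them were lower, while the 997 genes of that bright class had a median of 0.03 and 464 were lower. The core median stayed negative under every scaling tried, between -0.22 with quantile normalization and -0.14 with median centring, where 46 of the 53 were lower.

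**Figure D1:**
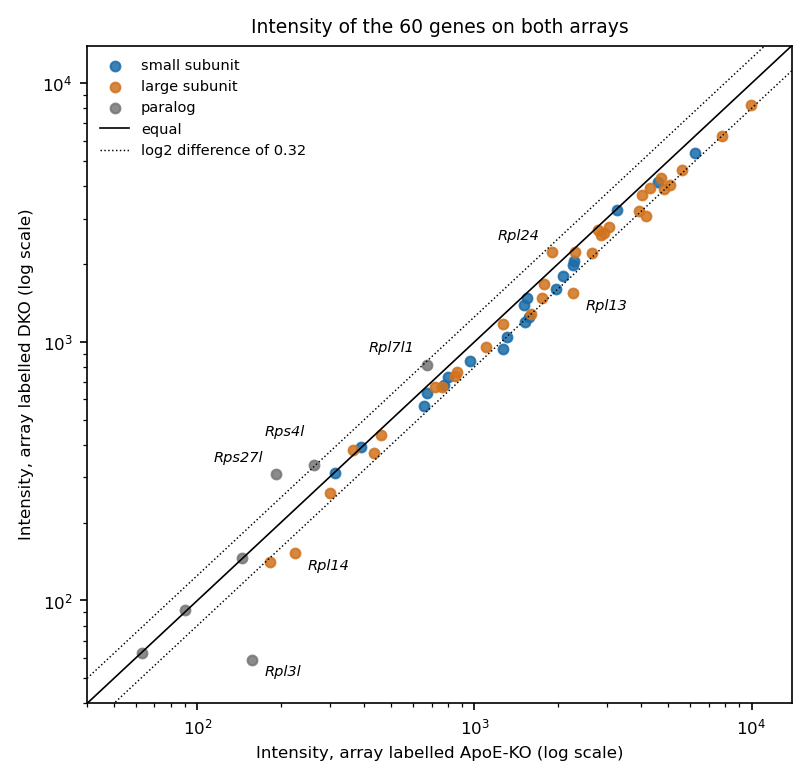
Intensity of each of the 60 genes in the ApoE-KO-labelled array (horizontal, log scale) and the DKO-labelled array (vertical, log scale), coloured by subunit or paralog. The solid line marks equal values and the dotted lines a log2 difference of 0.32 either way, and 50 of the 53 core genes lie below the solid line.

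Few single genes passed a fold threshold. Of the 54 members above the floor, 7 were lower and 2 higher by at least 0.32 on the log2 scale, the smallest fold counted. Among all named genes above the floor, 13.2% were lower and 16.7% higher by that much. The members' lower count was thus near the background, and their higher count was below it. The split was 3 lower and 3 higher with median centring, 4 and 2 with loess, and 12 and 2 with quantile normalization. At 1.5-fold, 0 members were lower and 1 was higher, beside 3.73% and 7.57% of genes. At 2-fold, 0 members above the floor differed either way, beside 0.698% lower and 2.79% higher.

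Markers of several other cell types in fat were also lower in the DKO-labelled array. B cell markers were lower in 11 of 11 genes, with a median of -1.04 and summed intensities of 4607 and 9070.3. T and NK cell markers were lower in 12 of 12 (median -0.43, sums 4293 and 6243), and macrophage markers in 11 of 12 (median -0.49, sums 8697.5 and 12642). Fibroblast and progenitor markers were lower in 11 of 11 (median -0.57, sums 22167 and 33764), and skeletal muscle markers in 24 of 24 (median -3.54, sums 4557 and 49790.04). Adipocyte markers (median 0.06 over 15, sums 74750 and 70871) and endothelial markers (0.06 over 10, sums 9075.5 and 8774) had medians close to 0. Single adipocyte markers ran from -0.14 to 0.47, and endothelial ones from -0.41 to 0.38. All 11 brown and beige adipocyte markers were higher, with a median of 2.90 and sums of 25487 and 4055. The 11 include Ucp1, the gene deleted in the DKO mice, whose reading leaves the labels in doubt as described above. None of these genes was at 0, the lowest being a muscle marker at 59.7. The part of these cell types in the lower ribosomal protein signal was not tested.

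**Figure D2:**
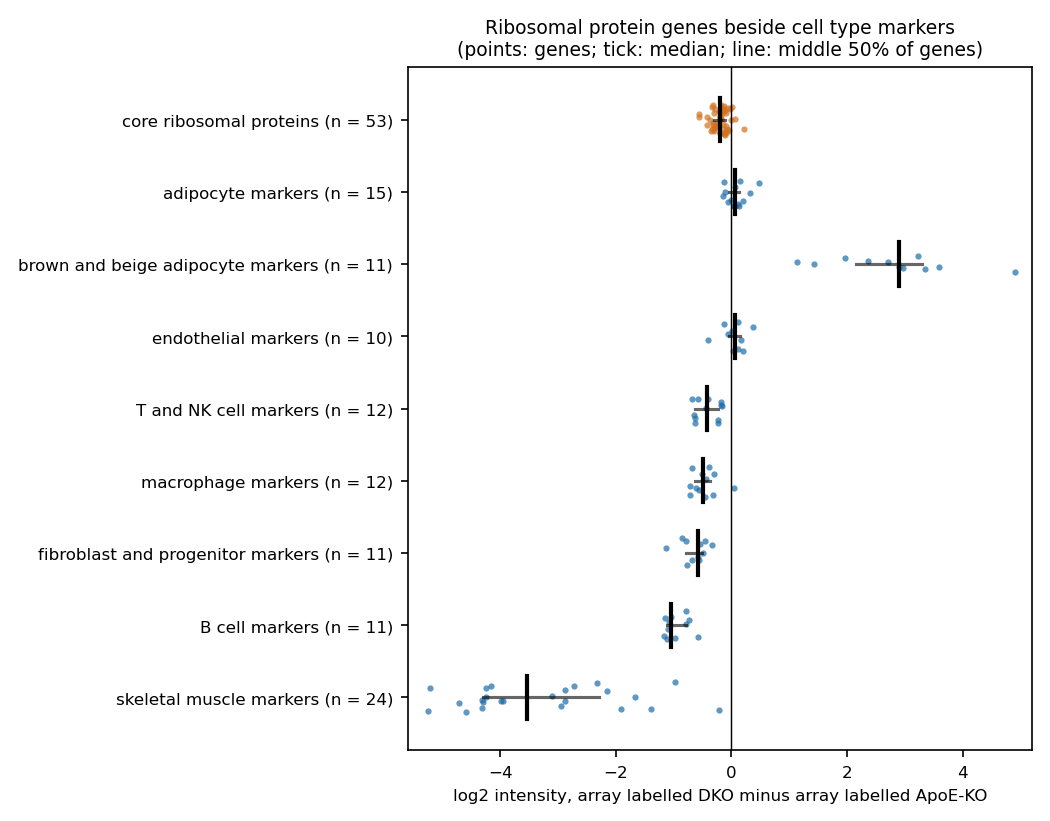
Differences of core ribosomal protein genes and of cell type markers (horizontal axis, log2 intensity, DKO-labelled minus ApoE-KO-labelled array), with a point per gene, a tick at the median and a line over the middle 50% of genes. The median of the core genes (-0.19) lies between those of adipocyte markers (0.06) and of T and NK cell markers (-0.43).

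The 7 genes lower by at least 0.32 came from both subunits. Rpl13, a large-subunit protein gene, read 1539 and 2273, a difference of -0.56. Its 9 probe sets lay between -0.56 and -0.47, so each gave the same direction. Rplp1, which encodes an acidic protein of the stalk that recruits elongation factors, read 3079 and 4149 (-0.43). Rps3, whose protein lines the mRNA entry channel and also acts in DNA repair, read 942.3 and 1265 (-0.42) on its single probe set. The other 4 lay closer to the threshold.

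Rps12 read 1189 and 1526 (-0.36), and its 14 probe sets, 8 with distinct values, lay between -0.38 and -0.27. Rpl19, near the mouth of the exit tunnel, read 4035 and 5085 (-0.33), with 7 probe sets between -0.39 and -0.31. Rps4x, the X-linked form of a small-subunit protein gene, read 1046 and 1314 (-0.33), with 5 probe sets between -0.46 and -0.30. These 3 genes were lower on each of their probe sets. Rps10, one of the genes mutated in Diamond-Blackfan anaemia, an inherited failure of red cell production, read 1250.5 and 1568 (-0.33). Its 3 probe sets lay between -0.36 and -0.29, so not all of them reached the threshold. Rps10 was the last inside the threshold, and Rpl8 followed just outside it with 1277 and 1595 (-0.3203, where the threshold is 0.322).

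Rpl14 had a larger difference than any of these, -0.57, but read only 152.1 and 225.2 and lay below the floor. Its size therefore rests on a dim probe set.

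Both subunits gave similar values. The 20 small-subunit genes had a median of -0.18 and ranged from -0.42 to 0.01, and 19 were lower. The 33 large-subunit genes had a median of -0.20 and ranged from -0.57 to 0.23, and 31 were lower. The 24 genes of proteins conserved from bacteria to mammals had a median of -0.21, and the other 29 core genes had one of -0.18.

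Genes whose proteins share a place in the ribosome were read together, beginning with the stalk. Rplp0, which anchors the stalk, read 4633 and 5634 (-0.28), lower like Rplp1. Rplp2, whose protein pairs with that of Rplp1, read 380.4 and 363.6 (0.07). Rpl12, at the stalk base, lay below the floor at 141.5 and 182.9 (-0.37). The 4 stalk genes had a median of -0.33, with Rplp2 on the other side of 0.

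Around the tunnel through which the new chain leaves, the 5 measured genes ran from -0.33 (Rpl19) to -0.05 (Rpl23a), the last of which turned to 0.01 with median centring. Rpl4, whose protein reaches into the tunnel wall, read 6276 and 7825 (-0.32). Rpl26, whose protein can also bind p53 mRNA, read 370.2 and 434.2 (-0.23). These genes were lower together apart from the near-zero Rpl23a. Rpl5, which carries the ribosome's smallest RNA and can bind the p53 regulator MDM2, read 3197 and 3918 (-0.29), and its 5 probe sets lay between -0.30 and -0.28.

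The 5 small-subunit genes of the mRNA channel and decoding region ran from -0.42 (Rps3) to -0.02 (Rps2), and Rps2 turned to 0.03 with median centring and 0.02 with loess. Rps14, a gene lost in the 5q- syndrome of bone marrow failure, read 1804 and 2082 (-0.21). Rps15, whose protein reaches the decoding site, read 1390.4 and 1508 (-0.12). Rps2 was thus the least different of them. Rps28 read 730.1 and 805.8 (-0.14).

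Rps6, the small-subunit protein gene whose product is phosphorylated downstream of mTORC1, read 5365 and 6255 (-0.22), with 8 probe sets between -0.27 and -0.22. Of the Diamond-Blackfan anaemia genes, 9 were measured, and their median was -0.21. Rps19, the most often mutated of them, read 312.5 and 312.7, a difference of -0.0012, and turned to 0.05 with median centring, 0.04 with loess and 0.03 with quantile normalization. The other 8 were lower.

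Among the brightest genes, Rpl21 read 8214 and 9947 (-0.28), with 9 probe sets between -0.30 and -0.22. Rpl27a read 3914 and 4820 (-0.30), with 9 probe sets between -0.45 and -0.26. Rpl10a read 2201 and 2663 (-0.28) and Rps20 1597 and 1963 (-0.30). These 4 lay close under the threshold. Rpl9 read 4296 and 4717 (-0.13), and its 8 probe sets all lay between -0.14 and -0.13. Rpl10, whose protein joins the large subunit last, read 3934 and 4285 (-0.12), with 6 probe sets between -0.15 and -0.12. Rpl9 and Rpl10 thus stood at smaller differences than Rpl21 or Rpl13 on every one of their probe sets.

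Several members are known for roles beyond the common core. Rpl22, needed for T cell development, read 671.2 and 766.6 (-0.19). Rpl38, linked to patterning of the skeleton, read 2793 and 3058 (-0.13). Rpsa, also known as the laminin receptor, read 1474 and 1548 (-0.07), with 5 probe sets between -0.22 and -0.07. All 3 were lower by less than the threshold. The remaining core genes lower in the DKO-labelled array lay between -0.25 (Rpl7) and -0.05 (Rpl41).

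On the other side of 0 stood 3 core genes. Rpl24, whose protein helps to bridge the subunits, read 2226 and 1903 (0.23). Its 3 probe sets lay between 0.20 and 0.23, so its direction did not depend on the probe set chosen. Rplp2 has 1 probe set. Rps13 read 391.8 and 390.4 (0.01), and the mean over its 3 probe sets was -0.04.

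**Figure D3:**
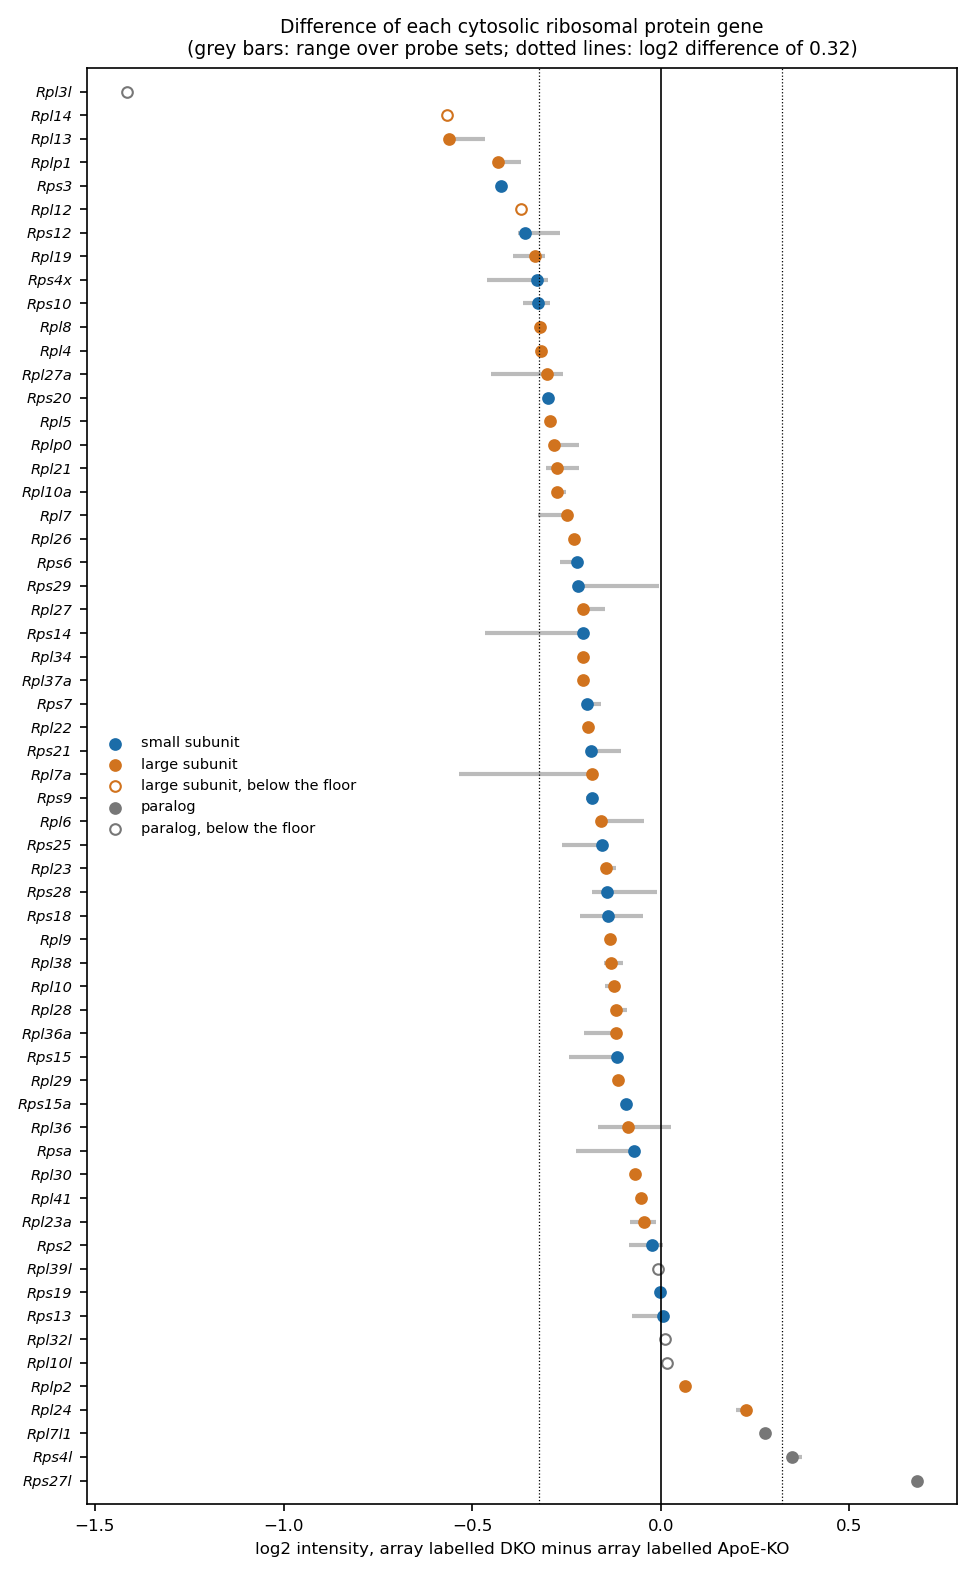
Difference of each gene (horizontal axis, log2 intensity, DKO-labelled minus ApoE-KO-labelled array), sorted, with grey bars for the range over a gene's probe sets and open points for genes below the floor. Core genes run from -0.57 to 0.23 around a median of -0.19, and the paralogs Rpl3l (-1.42) and Rps27l (0.68) lie at the ends.

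Repeated probe sets show how far readings of the same gene differed on these arrays. The 60 members had 216 probe sets with 1 symbol, of which 203 were lower and 13 higher in the DKO-labelled array. After probe sets with identical values were counted once, 38 genes had at least 2 distinct probe sets, and in 35 of them every probe set had the same sign. The range over a gene's distinct probe sets had a median of 0.08. The largest, 0.35, was that of Rpl7a, from -0.54 to -0.18. Rps14 stood at -0.46 on its dimmer probe set. The pooled SD within genes was 0.05, against an SD of 0.14 between the 53 core genes. Probe sets of 1 gene share the array and can share probes or read near-identical copies, so this spread covers neither arrays nor mice.

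Probe sets outside the rule gave similar values. Those that carry several symbols, with a ribosomal one among them, had 228 distinct values, of which 216 were lower and 12 higher, with a median of -0.20. Probe sets that name a member were not left out, so these values may partly read the members again. The 16 standard genes read only in this way were not summarised apart. Fau, which encodes a small-subunit protein fused to a ubiquitin-like one, had differences of -0.23 and -0.12 on its 2 probe sets.

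Of the 7 paralogs, 5 were higher and 2 lower in the DKO-labelled array, where 46.4% of all named genes were higher. Of the higher ones, Rpl10l (0.02) and Rpl32l (0.01) lay below the floor and near 0. Of the lower ones, Rpl39l (-0.01) turned to 0.04 with median centring. Rps27l, a p53-induced relative of Rps27, read 307.2 and 191.7, a difference of 0.68 and the highest of all members. Rps4l, an expressed pseudogene per RefSeq, read 334.4 and 262.6 (0.35), while Rps4x stood at -0.33. Rpl7l1, a nucleolar relative of Rpl7, read 817.5 and 674.5 (0.28), while Rpl7 read 1478 and 1756 (-0.25). These 3 were the paralogs above the floor, and each was higher in the DKO-labelled array, beside 48.2% of all named genes above the floor.

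Rpl3l, which replaces Rpl3 in the ribosomes of skeletal and heart muscle, read 59.08 and 157.7, both below the floor. Its difference of -1.42 was the lowest of all members, and it was -0.93 with an offset of 50. Eef1a2, the elongation factor form of muscle and neurons, read 441.3 and 1050.4 (-1.25), while Eef1a1, the form of most other cells (chosen after its value was seen), stood at -0.08. Both muscle forms were lower beside the 24 muscle markers given above, whose part in these values was not tested. Rpl10l and Rpl39l, forms known mainly from testis, and Rpl32l lay below the floor in both arrays, with differences between -0.01 and 0.02.

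Other genes whose mRNAs carry a TOP tract had much the same median. Of 17 measured, all above the floor, 15 were lower, with a median of -0.18, where 51.4% of all named genes above the floor were lower. The 17 include Fau (-0.23), itself a standard ribosomal protein gene outside the rule. By at least 0.32, 2 were lower and 1 higher, beside 13.2% and 16.7% of all genes, so the lower count was near the background. Nap1l1, a histone chaperone gene, read 592.7 and 862.2 (-0.54). Gas5, a non-coding host of small nucleolar RNAs, read 2816 and 3637 (-0.37). Eif3f stood at -0.28. Eif3l, which encodes another subunit of the same initiation factor, went the other way with 1449 and 954.5 (0.60). The elongation factor gene Eef2 (-0.23) and the poly(A)-binding protein gene Pabpc1 (-0.24) were picked after their values were seen.

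Ribosome biogenesis factors and initiation factors were read next, beside 46.4% of all named genes that were higher. Of 81 ribosome biogenesis factors, 51 were higher and 30 lower, with a median of 0.08. Above the floor, 13 of 76 were higher and 1 lower by at least 0.32, beside 16.7% and 13.2% of all genes, so the higher count was near the background and the lower one below it. Pno1, needed to finish the small subunit, read 766.7 and 417.6 (0.88). The kinase gene Riok2 of the same process stood at 0.72, and Nop10, of the particles that modify ribosomal RNA, at 0.66. Of 35 initiation factors, 25 were higher, with a median of 0.12. By at least 0.32, 8 were higher and 0 lower among the 34 that reached the floor, beside the same 16.7% and 13.2%. Eif2b1 (0.64) and Eif2b3 (0.53), parts of the factor that recharges eIF2, stood at the top with Eif3l, which is also a TOP gene. The other parts of that factor had smaller differences: Eif2b2 (0.03), Eif2b5 (0.11) and, below the floor, Eif2b4 (0.08).

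Most other lists lay closer to 0. The RNA polymerase I list, whose products transcribe ribosomal RNA, had a median of 0.07 over 20 genes, with the shared polymerase subunit gene Polr2f at 0.63 and the initiation factor gene Rrn3 at 0.41. Taf1d stood at -0.33 but at 0.03 as the mean of its probe sets. Nascent chain factors (median 0.03 over 19), ribosome quality control genes (-0.01 over 17) and elongation and termination factors (0.00 over 13) had medians whose sign turned with the scaling. Btf3l4 (0.59, or 0.36 when its probe sets were averaged) stood highest among nascent chain factors. In quality control, the deubiquitinase gene Usp10 stood at 0.39 and Edf1, whose protein binds collided ribosomes, at 0.38. Pelo stood at 0.27 and Ascc3 at -0.20, and 9 of the 17 genes in that list were lower. Host genes of small nucleolar RNAs lay further from 0, with a median of -0.18 over 7, and the 4 above the floor were lower. They include Gas5, already counted among the TOP genes.

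The mTORC1 pathway was mixed. Of 27 genes, 16 were higher and 11 lower, with a median of 0.08. By at least 0.32, 6 were higher and 4 lower among the 25 that reached the floor, beside 16.7% and 13.2% of all genes. Mtor, the kinase gene itself, read 1297 and 706.6 (0.88). Rheb, its activator, read 1719 and 1013 (0.76), and Deptor, an inhibitor, stood at 0.51. Larp1, the TOP-binding repressor (-0.14), and Myc, a driver of ribosome production (-0.35), were picked after their values were seen.

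Mitochondrial ribosomal proteins, a separate family that serves the ribosomes inside mitochondria, stood on the other side of 0. Of 77 genes, 76 were higher in the DKO-labelled array, with a median of 0.60, and the remaining one stood at -0.05. Above the floor, 58 of 72 were higher and 0 lower by at least 0.32, beside 16.7% and 13.2% of all genes. The list was taken by symbol (Mrpl or Mrps followed by a digit), and a place in the ribosome was not checked for each gene. Mrps36, the highest of the list and in it by symbol only, read 497.8 and 164.2 (1.60). Mrps33 read 971.9 and 475.01 (1.03). With 1 array per group, the difference between the families has no test.

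**Figure D4:**
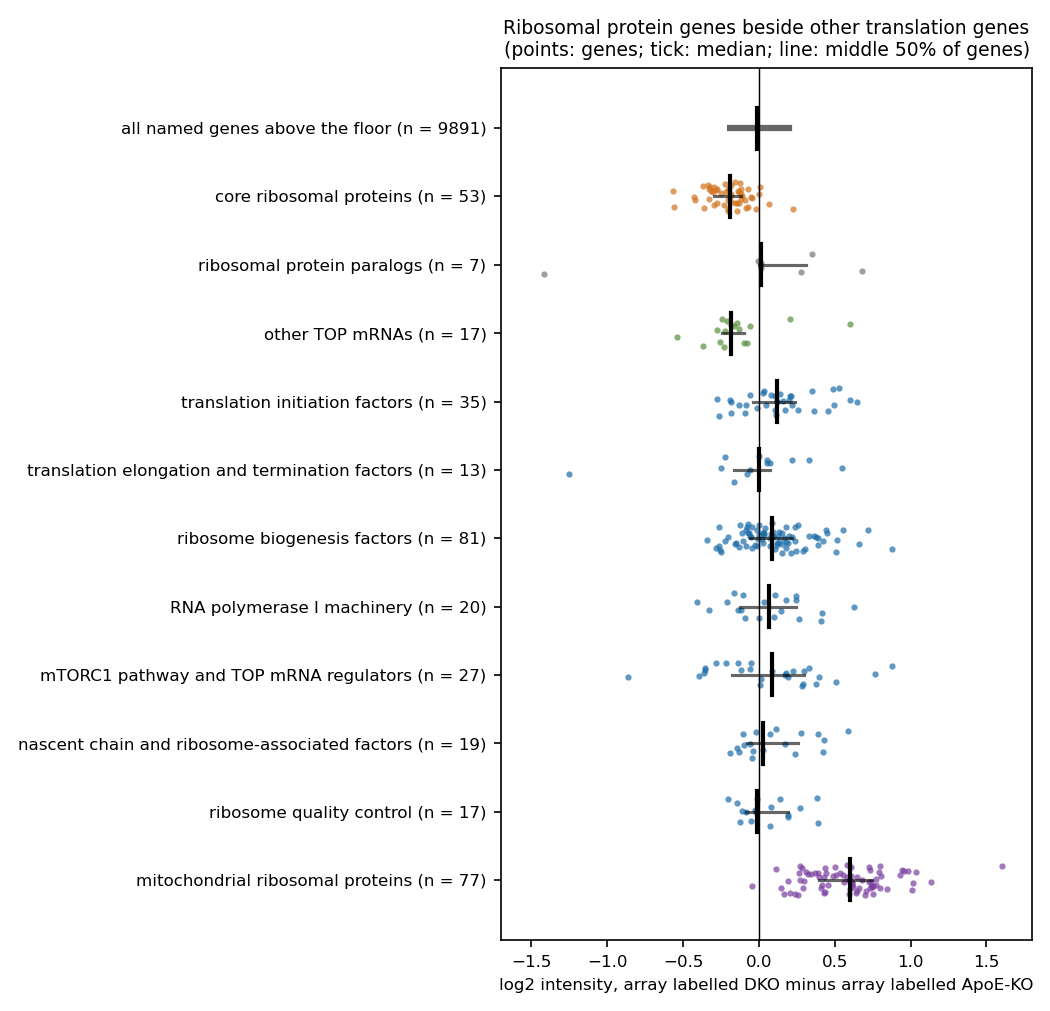
Differences of the genes in each list (horizontal axis, log2 intensity, DKO-labelled minus ApoE-KO-labelled array), with a point per gene, a tick at the median and a line over the middle 50% of genes. Core ribosomal proteins and other TOP mRNAs have medians of -0.19 and -0.18, and mitochondrial ribosomal proteins one of 0.60.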

How the data were processed

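The members and lists were chosen with earlier results of these data known. The authors deposited 1 linear intensity per probe set and array, from 3.55 to 23635.65. Their background correction, summarisation and scaling steps are not given in the sources cited here. The labels' protocols name Trizol for RNA isolation and biotin as the label. Log2 was taken with no pseudocount, with Python 3.11.15, pandas 2.3.3 and statsmodels 0.14.6. Of 35557 probe sets, 21789 carried 1 symbol in the platform annotation, 1621 several (left out) and 12147 none. A gene was read by its probe set of highest mean over both arrays. Entrez identifiers matched RefSeq (GRCm38.p6) for 60 of 60 members. The intensities carry no probe positions, and many ribosomal genes have near-identical pseudogenes, so a probe set may read several copies. A gene above the floor was counted from a log2 difference of 0.32, with 1.5-fold and 2-fold as alternatives. Other alternatives were quantile normalization, median centring, loess, an offset of 50, another floor and other probe set choices. The number of arrays limits the precision. The self-test on simulated arrays recovered the 2-fold differences planted in it. It planted none as small as those of the core genes, so it does not show that these would be recovered.

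Any member could be named, since all are accounted for. Described in detail were, among genes reaching the floor, the 8 members at most that differed furthest in each direction, the paralogs, the role lists and up to 4 genes per pathway list. The Diamond-Blackfan and conservation lists were described by counts. The list of ubiquitin fusions had 0 measured members.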

Additional observations from a re-analysis of the deposited data

How the results depend on the processing

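With 1 array per genotype, no replicate could be left out and nothing here measures error. No paired analysis was possible because each group holds 1 array. Under the scalings, offset and probe set choices tried, the member median stayed between -0.22 and -0.13, and the medians of the small (-0.22 to -0.13) and large subunit (-0.22 to -0.15) stayed negative. The probe set with the lowest mean and every distinct probe set as 1 value were added after seeing the data. The count of members higher in the array labelled DKO was 8, became 13 with median centring and was 3 without the paralogs. The count higher by at least 0.32 was 2 and became 1 with an offset of 50 or at 1.5-fold, and 0 without the paralogs, at 2-fold or with the floor at percentile 75. The count lower by at least 0.32 was 7, and became 12 with quantile normalization, 3 with median centring, 4 with loess, and 0 at 1.5-fold or 2-fold. Median centring moves every gene by 0.05, and fold thresholds and floors move counts by construction; otherwise the cause was not tested. The host genes of small nucleolar RNAs went from -0.18 to -0.066 with the mean of probe sets and to -0.29 above the floor. Of 665 values for single genes, 641 moved by less than 0.1, 23 moved further and kept their sign, and Taf1d turned to 0.026 with the mean of probe sets. Near 0, Rpl23a, Rpl39l, Rpl41, Rps2, Rps13 and Rps19 also turned their sign, each by less than 0.1. Low intensities, as for Rpl3l, limit the least bright genes.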
